A study of Mus musculus with 4 samples.

Results

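Interleukin receptor chains are the subunits through which white blood cells sense interleukins, and 29 of them were examined in lymph node B cells of mice with a transgene that over-expresses the microRNA miR-146a. The chains were taken from the 17097 genes that the platform annotation names with single-gene probe sets, by their symbols: an interleukin number and an r, then nothing, a digit or a letter a, b, g or l, as in Il4ra or Il1r2, with 1 gene of that pattern left out. The 29 genes had 46 probe sets, and for each gene the brightest probe set, by its mean of the 4 arrays, stands for the gene. Wild type mice were compared with miR-146a transgenic mice, 2 mice per group with 1 Affymetrix array each. All 4 mice were labelled as male Balb/C, an inbred laboratory strain, of 6 to 8 weeks. B cells were purified from lymph nodes by magnetic removal of other cells, and dead cells were depleted. The sources used here do not say which promoter drives the transgene or in which cells.

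Most interleukin receptors are assembled from a chain that binds the cytokine and a chain shared by several receptors. Receptors of the gamma-chain, beta-chain, IL-6/IL-12 and IL-10 families signal through Janus kinases (JAK) and STAT transcription factors. Receptors of the IL-1 family signal through the adaptor MyD88, IRAK kinases and TRAF6, and B cells use IL-4, IL-21, IL-10 and IL-6 signals to survive, switch antibody class and mature. miR-146a is known for repressing IRAK1 and TRAF6. The mature strands of this microRNA are shown because it is what the transgene encodes; the labels name no strand. RefSeq places them on GRCm38.p6 at chr11:43374435-43374456 (5p strand) and chr11:43374399-43374420 (3p strand), both on the minus strand, and capitals mark the seed, bases 2 to 8.
mmu-miR-146a-5p: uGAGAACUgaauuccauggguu
mmu-miR-146a-3p: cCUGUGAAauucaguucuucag

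The values were log2 signals, on which a difference of 1 is a doubling. Over all 45037 probe sets the median difference, transgenic minus wild type, was -0.04. The arrays differed in ways that touch every result. Across probe sets Pearson's r was 0.998 between both wild type arrays and 0.989 between both transgenic arrays. Transgenic mouse 1 had the lowest upper quartile (6.14, against 6.51 to 6.56 on the other arrays), and the 3' beta-actin control probe set there was brighter than the middle one by 0.47 (0.14 to 0.16 elsewhere). Xist, a long RNA made by female cells for X inactivation, read 9.13 and 9.56 on the transgenic arrays and 5.96 and 6.19 on the wild type arrays, which does not match the male label of the transgenic mice. The Y-linked gene Eif2s3y was present on every array nevertheless, at 8.29 and 8.34 in wild type and 7.80 and 8.00 in transgenic mice.

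Markers of B cells were present but lower in the transgenic arrays, and the summed markers of T cells, neutrophils, monocytes and macrophages, basophils and mast cells, and type 2 innate lymphoid and Th2 cells were higher. All 8 measured B cell markers were lower without overlap between the groups, where 31.4% of all gene representatives were, and their summed linear signal was 11695 and 12318 in wild type and 6441 and 6682 in transgenic arrays. The 11 T cell markers summed to 11466 and 11586 in wild type and to 13994 and 15866 in transgenic arrays. Of these 10 were higher without overlap, where 17.7% of all gene representatives were, Cd8a by 1.14 among them. Cd4, the co-receptor of helper T cells, was lower without overlap (7.76 and 7.90 against 7.05 and 7.03, difference -0.79, limma adjusted p = 0.127). The sums of 10 neutrophil markers were 425 and 421 against 1470 and 2061. Their differences were split, from 0.06 to 2.77, with 5 of the 10 at 1 or more. For 8 basophil and mast cell markers the sums were 182 and 178 against 313 and 439. Of these 8 the mast cell proteases Cpa3 and Cma1 differed by 2.36 and 1.54 and Fcer1a, from a dim signal, by 1.42, while 1 marker was lower without overlap and 2 overlapped. The 7 monocyte and macrophage markers summed to 1274 and 1252 against 1670 and 2008, and the 5 markers of type 2 innate lymphoid and Th2 cells to 258 and 263 against 315 and 407. Lyz2, the brightest monocyte and macrophage probe set on every array, read 10.05 and 10.01 against 10.42 and 10.71 and carried most of that sum, and 3 of the 7 markers overlapped. The sums of 7 natural killer cell markers overlapped (1491 and 1511 against 1272 and 1513), but single markers moved apart in both directions. Eomes differed by 1.17, Prf1 by 0.44, Gzma by -0.96 and Tbx21 by -1.13, each without overlap, and the other 3 overlapped. That is 28.6% of the 7 in each direction, beside 17.7% higher and 31.4% lower among all gene representatives. The sums of 3 dendritic cell markers overlapped too (145 and 152 against 145 and 120), with Xcr1 at 0.55 and Flt3 at -0.36. For 4 plasma cell markers the sums were 2401 and 2334 against 1886 and 2007, with Jchain at -0.65 and Prdm1 at 0.43. No marker could read 0, as the lowest of all deposited values was 2.01. Of the 8 basophil and mast cell markers 3 lay under the 40th percentile of mean signal on every array. Fcer1a, among them, read 2.57 and 2.59 in wild type, under the mean of the non-specific control probe sets there (2.83 and 2.84). In such bulk samples fewer cells of a type and less RNA per cell cannot be told apart. The part of these shifts in the differences below was not tested.

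None of the 29 receptor chains passed the test between transgenic and wild type B cells. The test was limma with Benjamini-Hochberg adjustment over 45037 probe sets at 0.05, which called 0.0466% of them, and the smallest adjusted p among the chains was 0.151. With unadjusted limma p under 0.05 there were 4 chains higher (Il13ra1, Il2rb, Il4ra and Il12rb2) and 2 lower (Il5ra and Il10ra). Over the representatives of all genes this share was 3.83% higher and 10.2% lower. The groups did not overlap for 10 chains that were higher and 6 that were lower, 34.5% and 20.7% of the chains, where over all gene representatives the shares were 17.7% and 31.4%. The median difference of the chains was 0.05 and that of all gene representatives -0.05. After quantile normalization 2 chains passed, Il2rb (limma adjusted p = 0.0313) and Il1r2, where 1.93% of all probe sets did. Leaving out single transgenic arrays moved the calls most: without transgenic mouse 1 there were 6 chains past the threshold, Il2rb, Il15ra, Il13ra1, Il1r2, Il5ra and Il10ra, beside 9.19% of all probe sets. Without transgenic mouse 2 there were 11, beside 42.4% of all probe sets: Il2rb, Il4ra, Il13ra1 and Il12rb2 higher, and Il5ra, Il10ra, Il21r, Il20rb, Il6ra, Il18r1 and Il17ra lower. Such a fit rests on 1 transgenic array. With 2 arrays against 2, an exact two-sided permutation test of 1 gene cannot give a p below 0.333.

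**Figure D1:**
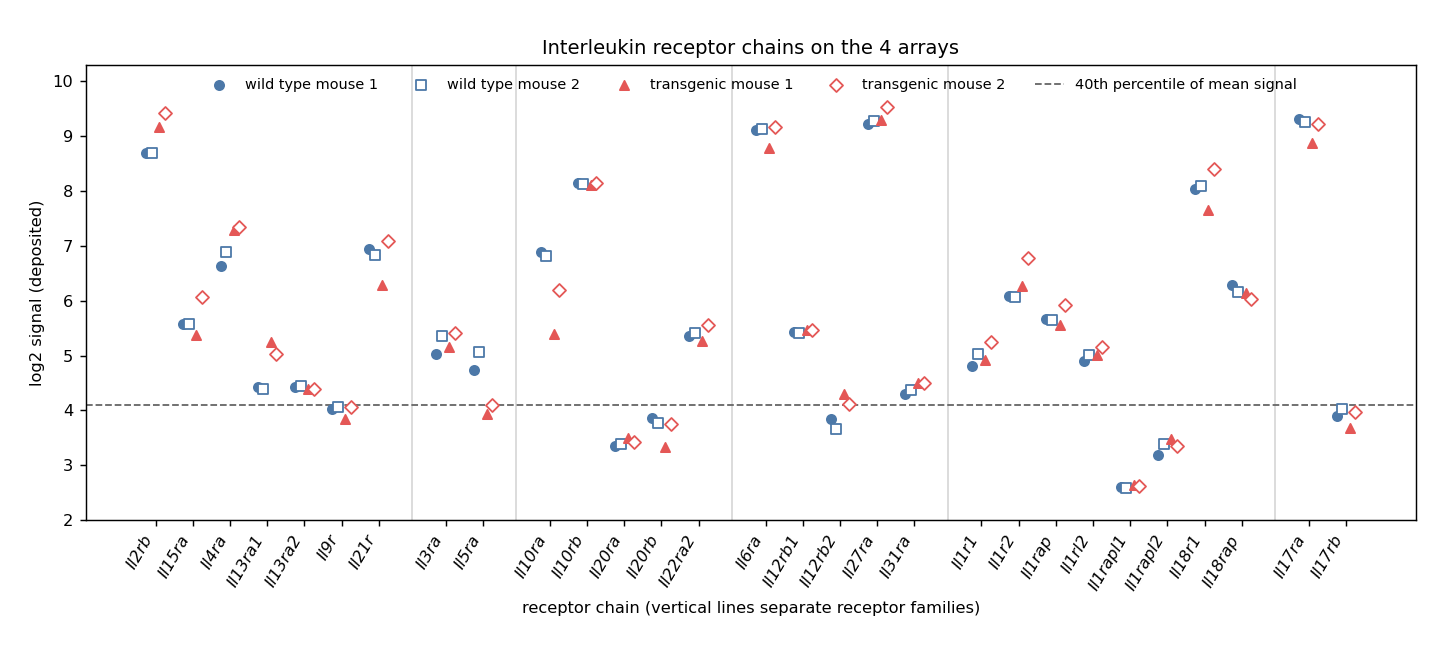
Deposited log2 signal (vertical axis) of each of the 29 receptor chains (horizontal axis, by receptor family) on the 2 wild type arrays (blue) and 2 transgenic arrays (red). The dashed line is the 40th percentile of mean signal over all probe sets, 4.10, below which 7 chains lie by their mean; levels of different genes come from different probes and are not comparable.

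The spread within the groups was unequal for these chains too. The median gap between both wild type mice was 0.05 and that between both transgenic mice 0.22. For 21 of 29 chains transgenic mouse 1 read lower than transgenic mouse 2, a share of 72.4% that stands beside 74.2% of all gene representatives. Measured against the wild type mean, the median of the chains was -0.04 in transgenic mouse 1 and 0.16 in transgenic mouse 2.

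Il13ra1 and Il4ra, which together bind IL-4 and IL-13, had 2 of the 3 highest differences. Il4ra, the alpha chain shared by the IL-4 and IL-13 receptors, read 6.64 and 6.89 in wild type and 7.29 and 7.34 in transgenic mice. Both transgenic values lay above both wild type values, with a difference of 0.55 (SE 0.13, n = 2 each, limma adjusted p = 0.217), a 1.47-fold higher signal. Il13ra1, which joins Il4ra in the type II receptor and binds IL-13, read 4.43 and 4.39 in wild type and 5.25 and 5.03 in transgenic mice. The groups were again apart, by 0.73 (SE 0.12, 95% interval 0.41 to 1.04, limma adjusted p = 0.151), a 1.66-fold higher signal. The other 4 probe sets of Il13ra1 differed by only 0.04 to 0.09, and the mean of all 5 by 0.20 (limma adjusted p = 0.434). Il13ra2, a decoy that binds IL-13, read 4.43 and 4.44 in wild type and 4.40 and 4.39 in transgenic mice, with a difference of -0.04 (95% interval -0.29 to 0.21).

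Among chains that work with the common gamma chain, Il2rb stood highest in difference, but its probe sets disagreed. Il2rb, the beta chain through which IL-2 and IL-15 signal, read 8.70 and 8.69 in wild type and 9.16 and 9.42 in transgenic mice (difference 0.60, SE 0.13, limma adjusted p = 0.205). Its other 2 probe sets ran the opposite way without overlap, at 7.53 and 7.56 against 7.32 and 7.46 (difference -0.16) and at 5.21 and 5.32 against 5.01 and 5.13 (difference -0.20). The direction of Il2rb is therefore not settled by these arrays, and the mean of its 3 probe sets differed by 0.08.

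Il15ra, which presents IL-15 to cells that carry Il2rb, also had probe sets of different sizes of difference. Its representative read 5.57 and 5.58 in wild type and 5.37 and 6.07 in transgenic mice, so that the transgenic mice lay on either side (difference 0.14). Its other probe set read 4.68 and 4.82 against 5.44 and 5.32, with no overlap and a difference of 0.63 (limma adjusted p = 0.168). Il21r, the receptor for the follicular helper T cell cytokine IL-21, read 6.95 and 6.84 in wild type and 6.28 and 7.09 in transgenic mice. Transgenic mouse 1 was the low array, and the difference of -0.21 had a 95% interval from -0.95 to 0.53. Without transgenic mouse 1 the sign turned (0.20), and after quantile normalization it was 0.01. Il9r, the IL-9 receptor, read 4.03 and 4.06 against 3.84 and 4.06 and overlapped.

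Il5ra, which pairs with the common beta chain to bind IL-5 and is known from eosinophils and B-1 cells, was lower in transgenic mice. It read 4.73 and 5.06 in wild type and 3.94 and 4.11 in transgenic mice, without overlap. The difference was -0.87 (SE 0.15, 95% interval -1.27 to -0.47, limma adjusted p = 0.167), a 1.83-fold lower signal, and it ran from -1.04 to -0.71 when single arrays were left out. The transgenic readings lay near the 40th percentile of mean signal, 4.10. Il3ra, the IL-3 binding chain of the same family, read 5.03 and 5.36 against 5.16 and 5.41, and the groups overlapped. The shared beta chains, which are no members, read higher: Csf2rb differed by 0.23 and its IL-3 specific relative Csf2rb2 by 0.33 (limma adjusted p = 0.393 and 0.454). Csf2rb2 differed by 0.53 without transgenic mouse 1 (limma adjusted p = 0.0232) and by 0.13 without transgenic mouse 2, and Csf2rb by 0.45 after quantile normalization.

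The ligand-binding chain of the IL-10 receptor showed the widest difference of the 29, and its partner hardly any on its representative probe set. Il10ra, which binds the anti-inflammatory cytokine IL-10, read 6.90 and 6.81 in wild type and 5.39 and 6.20 in transgenic mice. Both transgenic mice were lower, mouse 1 by more than mouse 2, and the difference was -1.06 (SE 0.28, 95% interval -1.80 to -0.32, limma adjusted p = 0.258), a 2.08-fold lower signal. It was -0.65 without transgenic mouse 1 (limma adjusted p = 0.0179), -1.46 without transgenic mouse 2 and -0.87 after quantile normalization. In the same arrays the B cell markers had a median of -0.98, and their part in this difference was not tested.

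Il10rb, the chain that the IL-10, IL-22 and interferon-lambda receptors share, read 8.15 and 8.12 in wild type and 8.11 and 8.14 in transgenic mice. The groups overlapped, with a difference of -0.01 and a 95% interval from -0.26 to 0.24. A dimmer probe set of Il10rb read 5.46 and 5.44 against 4.82 and 5.04, without overlap, and differed by -0.52 (limma adjusted p = 0.219). Whether Il10ra and Il10rb differed from each other in response was not tested. Among their relatives, Il22ra2, the soluble IL-22 binding protein, overlapped (0.02). Il20ra and Il20rb, which form an IL-20 receptor, read 3.33 to 3.85 on all arrays, near the non-specific control probe sets, which averaged 2.83 to 2.95.

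**Figure D2:**
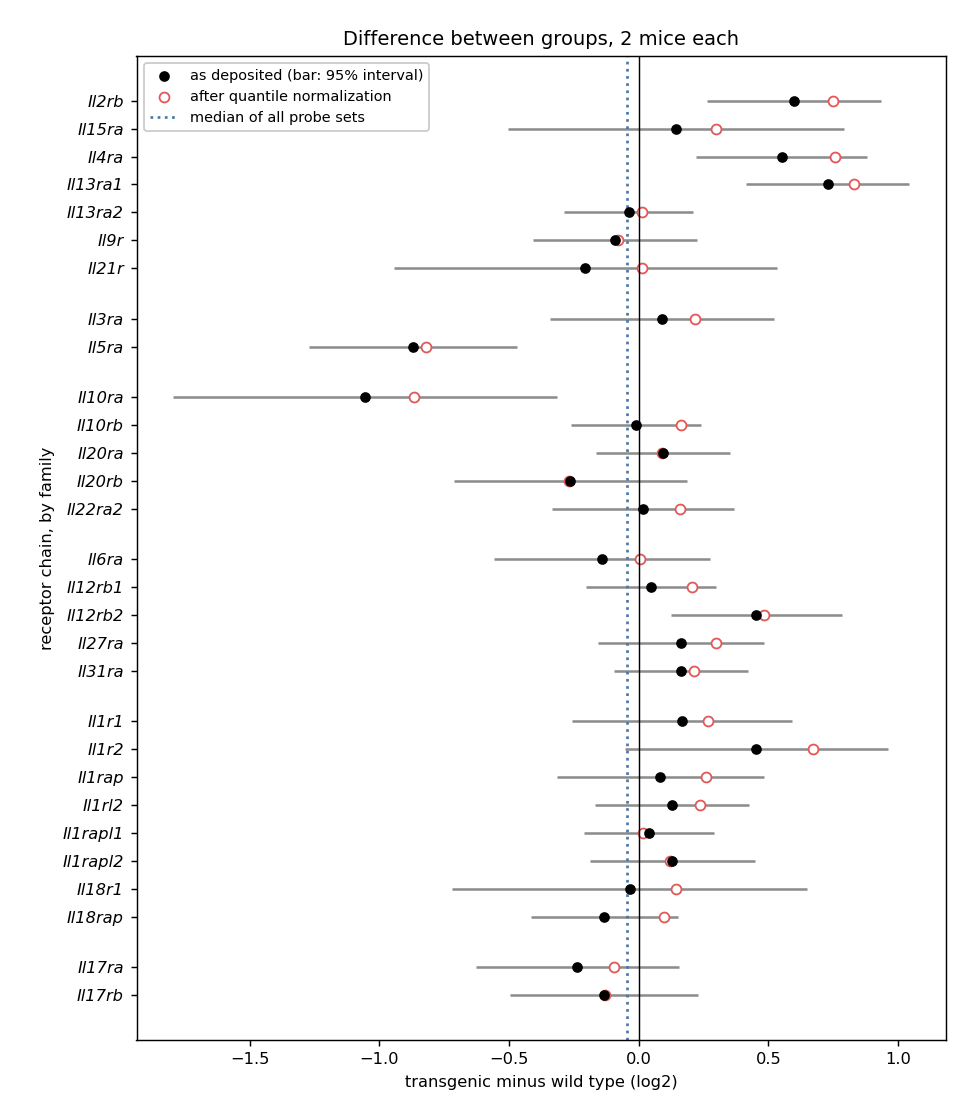
Difference in log2 signal between transgenic and wild type mice (horizontal axis) for the 29 chains by family, with the 95% interval of the limma fit (bars, 2 mice per group), and the same difference after quantile normalization (open circles). Il10ra (-1.06) and Il5ra (-0.87) lie lowest and Il13ra1 (0.73), Il2rb (0.60) and Il4ra (0.55) highest, and no chain passed the adjusted threshold as deposited.

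Of 5 chains of the IL-6, IL-12, IL-27 and IL-31 receptors 4 read higher without overlap, as did 17.7% of all gene representatives, and none passed the test. Il12rb2, the inducible chain of the IL-12 receptor, read 3.84 and 3.66 in wild type and 4.29 and 4.11 in transgenic mice. It differed by 0.45 (SE 0.13, limma adjusted p = 0.270), but its mean lay under the 40th percentile. Il12rb1, the chain shared by the IL-12 and IL-23 receptors, read 5.43 and 5.42 against 5.46 and 5.47, a difference of 0.05 (95% interval -0.20 to 0.30). Il27ra, which T and B cells use to sense IL-27, read 9.22 and 9.29 against 9.30 and 9.53 and differed by 0.16 (limma adjusted p = 0.595). That difference was 0.28 without transgenic mouse 1, 0.05 without transgenic mouse 2 and 0.30 after quantile normalization. Il31ra, the IL-31 receptor chain, differed by 0.16 (limma adjusted p = 0.525).

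Il6ra, the IL-6 binding chain, read 9.11 and 9.14 in wild type and 8.79 and 9.18 in transgenic mice. Transgenic mouse 1 was the low array and the groups overlapped (difference -0.14). A second probe set, at 5.77 and 5.88 against 6.14 and 6.31, ran the other way without overlap (0.40, limma adjusted p = 0.278). Il6ra thus has no settled direction here, and the mean of both probe sets differed by 0.13.

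None of the 8 IL-1 and IL-18 receptor chains passed the test, and the decoy Il1r2 had the widest difference of their representatives. Il1r2, which traps IL-1 without signalling and is abundant in neutrophils, read 6.09 and 6.06 in wild type and 6.27 and 6.79 in transgenic mice. The groups did not overlap, and the difference of 0.45 (SE 0.19, limma adjusted p = 0.404) was 0.71 without transgenic mouse 1 (limma adjusted p = 0.0131), 0.20 without transgenic mouse 2 and 0.67 after quantile normalization (limma adjusted p = 0.0471). The 10 neutrophil markers had a median difference of 0.74 in these arrays, but they were split, from 0.06 to 2.77. Their part in the difference of Il1r2 was not tested. Il1r1, the signalling IL-1 receptor, read 4.80 and 5.03 against 4.91 and 5.25, and its co-receptor Il1rap 5.67 and 5.65 against 5.56 and 5.93. Both overlapped between the groups, as did Il1rl2, the IL-36 receptor (difference 0.13). A dim probe set of Il1rap read 3.45 and 3.49 against 4.26 and 3.55, a difference of 0.43 without overlap (limma adjusted p = 0.505) that lay mainly in transgenic mouse 1.

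Il18r1 and Il18rap, the chains of the IL-18 receptor, gave no direction. Il18r1 read 8.04 and 8.09 in wild type and 7.66 and 8.40 in transgenic mice, which lay on either side (difference -0.04, 95% interval -0.72 to 0.65). Leaving out transgenic mouse 1 gave 0.34, and leaving out transgenic mouse 2 gave -0.41 (limma adjusted p = 0.0123). Il18rap read 6.28 and 6.16 against 6.14 and 6.04, a difference of -0.13 without overlap that was 0.10 after quantile normalization, and a dimmer probe set of it differed by 0.05. Il1rapl1 and Il1rapl2, relatives best known from neurons, read 2.59 to 3.48 on all arrays.

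Neither IL-17 receptor chain passed the test. Il17ra, the chain common to the IL-17 receptors, read 9.31 and 9.27 in wild type and 8.88 and 9.23 in transgenic mice. The low value was that of transgenic mouse 1, and the difference was -0.24 (SE 0.15, limma adjusted p = 0.539), -0.06 without transgenic mouse 1 and -0.41 without transgenic mouse 2. Its other probe set overlapped (0.02). Il17rb, which binds IL-25, read 3.69 to 4.02 on all arrays and overlapped, with a difference of -0.13 that was 0.0092 without transgenic mouse 1.

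Of the 29 chains 10 had several probe sets, and in 5 of these, Il2rb, Il6ra, Il17ra, Il18rap and Il1rl2, the probe sets differed in sign. Il10ra, Il5ra, Il4ra and Il12rb2 were each measured by 1 probe set, so their differences have no second reading. For Il13ra1 and Il2rb the representative lay apart from every other probe set of the gene.

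**Figure D3:**
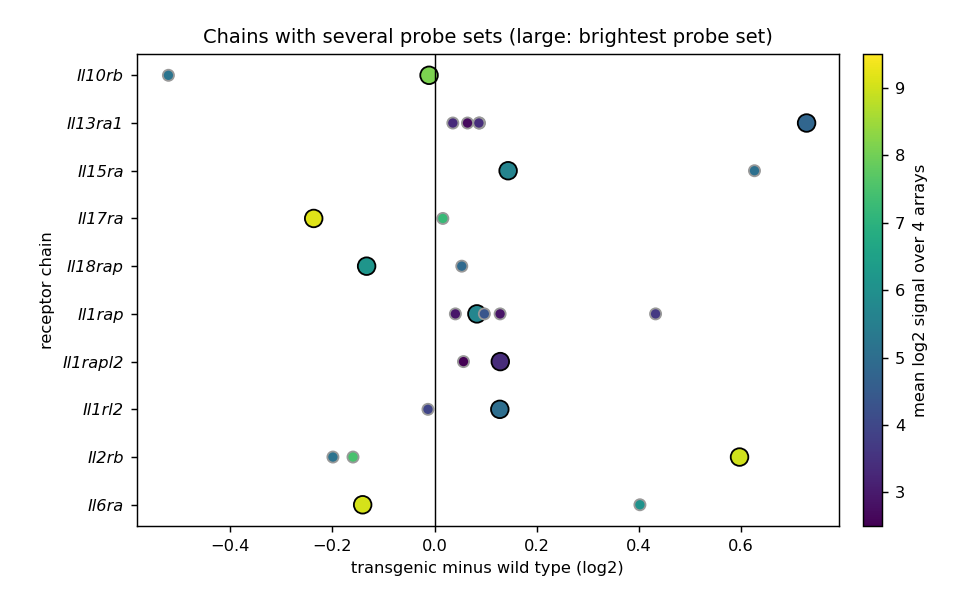
Difference in log2 signal between transgenic and wild type mice (horizontal axis) for every probe set of the 10 chains with several probe sets, coloured by mean signal; large outlined circles are the representatives. The representative of Il2rb lies at 0.60 and its other 2 probe sets at -0.16 and -0.20, and that of Il13ra1 at 0.73 with the others at 0.04 to 0.09.

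Several chains lie next to each other in the genome, by the gene order of GRCm38.p6. Il1r2, Il1r1 and Il1rl2 are neighbours on chromosome 1, with Il18r1 and Il18rap 1 coding gene further on. Their differences along that order were 0.45, 0.17, 0.13, -0.04 and -0.13. Il4ra and Il21r are adjacent on chromosome 7 and differed by 0.55 and -0.21. On the X chromosome, where the Xist signal was high, lie Il13ra1 (0.73), Il13ra2 (-0.04), Il1rapl1 (0.04) and Il1rapl2 (0.13). The part of the Xist difference in these values was not tested.

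The widest differences among the interleukins themselves were larger than any among the 29 receptor chains. None of 25 measured interleukins and antagonists passed the test, and 4 were higher and 1 lower with an unadjusted limma p under 0.05 (median difference 0.01), where 3.83% and 10.2% of all gene representatives were. Il17a, the cytokine of Th17 and gamma-delta T cells, read 5.20 and 5.69 in wild type and 7.61 and 8.39 in transgenic mice. The groups lay far apart, by 2.55 (SE 0.32, limma adjusted p = 0.114), a 5.87-fold higher signal. Il4, the ligand of Il4ra, read 3.46 and 3.30 against 4.85 and 5.05. It was higher by 1.58 (SE 0.13, limma adjusted p = 0.0806). Its wild type readings lay under the 40th percentile, 4.10, not far above the non-specific controls, so no fold is given.

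Il1b, the ligand of Il1r1 and Il1r2, read 5.95 and 6.03 against 6.87 and 7.18 (difference 1.04, limma adjusted p = 0.129). Il12a, a subunit of IL-12 and IL-35, read 6.36 and 6.64 against 4.24 and 5.33, without overlap (difference -1.71, SE 0.38, limma adjusted p = 0.212). After quantile normalization Il17a, Il4 and Il1b passed (limma adjusted p = 0.0188, 0.0112 and 0.0139), where 1.93% of all probe sets did. The T cell and the basophil and mast cell markers had medians of 0.29 and 0.22 in the same arrays. Those of neutrophils, which were split from 0.06 to 2.77, and of monocytes and macrophages had medians of 0.74 and 0.22. The part of all these markers was not tested.

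**Figure D4:**
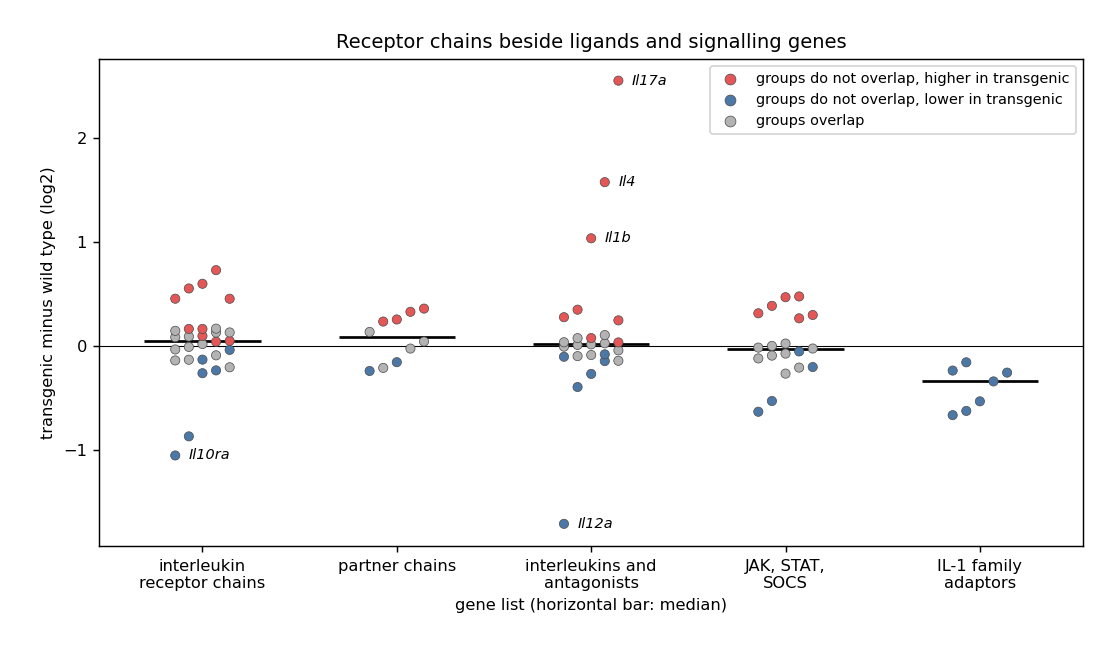
Difference in log2 signal between transgenic and wild type mice (vertical axis) for each gene of 5 lists (horizontal axis), with the median of each list as a bar and colour for whether the groups overlap. Receptor chains lie between -1.06 and 0.73, interleukins between -1.71 and 2.55, and all 7 genes of the IL-1 family adaptor list lie below 0.

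Partner chains, a list that also holds related cytokine receptors, and signalling genes downstream of the receptors were mixed. Of 10 measured partner chains none passed the test and none had an unadjusted limma p under 0.05 (median 0.09). Besides those named, Osmr, the oncostatin M receptor, differed by 0.36 from a low signal, and Sigirr, an inhibitor of IL-1 family signalling, by -0.24. Osmr differed by 0.14 without transgenic mouse 1, 0.58 without transgenic mouse 2 (limma adjusted p = 0.00782) and 0.17 as the mean of its probe sets, and Sigirr by -0.07 after quantile normalization. Of 19 JAK, STAT and SOCS genes none passed, and 2 were higher and 2 lower with an unadjusted limma p under 0.05 (median -0.03), beside the same 3.83% and 10.2%. Socs2 and Socs6, feedback inhibitors that cytokines induce, differed by 0.47 and 0.48, and Stat2, of interferon signalling, and Ptpn6, the phosphatase SHP-1, by -0.63 and -0.53. Socs2 differed by 0.28 as the mean of its probe sets and Socs6 by 0.31 without transgenic mouse 1.

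On the list of adaptors of IL-1 family and IL-17 receptors, which also holds IRAK kinases, 7 of 7 measured genes were lower without overlap. Of all gene representatives 31.4% were, and no gene of the list passed the test. With an unadjusted limma p under 0.05 there were 4 lower, beside 10.2% of all gene representatives: Irak2 (-0.67), Irak3 (-0.53), Tollip (-0.63) and Traf3ip2, the IL-17 receptor adaptor Act1 (-0.34), with limma adjusted p from 0.205 to 0.312. Tollip differed by -0.38 without transgenic mouse 1 and by -0.33 as the mean of its probe sets, and Traf3ip2 by -0.16 after quantile normalization. Irak1 and Traf6, which miR-146a is known for repressing, differed by -0.24 and -0.26 (limma adjusted p = 0.417 and 0.525), less than those 4. The median of the 7 was -0.34 and became -0.16 after quantile normalization. The B cell markers, at a median of -0.98, were lower in the same arrays, and their part was not tested.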

How the data were processed

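RNA of lymph node B cells was measured on 4 Affymetrix arrays, 2 wild type and 2 transgenic. The authors deposited log2 signals, 1 per probe set and array. Background correction, normalization and probe summary are not given in the sources used here, and their size (at most 13.03) marks them as base-2 logarithms. Genes came from the platform annotation, and all 29 members matched RefSeq by Entrez ID. After 104 control probe sets were set aside, 45037 entered a two-sided limma fit by lmFit and eBayes (limma 3.58.1, R 4.3.3, Benjamini-Hochberg threshold 0.05, 2 residual and 2.69 prior degrees of freedom), and the fit was tested on simulated data. The members and lists were chosen with earlier results of these data known. All members were named, and of each other list at most 4 genes by smallest p, with Irak1 and Traf6 given besides. Mice were numbered but not paired in the labels. The p-values, SEs and intervals rest only partly on a probe set's own spread between 2 mice per group. The eBayes step weighs that spread, with 2 degrees of freedom, against a prior variance estimated from all 45037 probe sets, with 2.69. A printed SE can therefore be wider or narrower than the spread of the mice alone would give. Alternatives were quantile normalization, median centring, the mouse number as a replicate block, dropping probe sets under the 40th percentile of mean signal (4.10), trended robust eBayes, averaging a gene's probe sets, a threshold of 0.1, and leaving out each array. Seed-site enrichment was not analysed here. Figures were drawn with matplotlib 3.10.9.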

Additional observations from a re-analysis of the deposited data

How the results depend on the processing

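The replicate block, trended robust eBayes, dropping dim probe sets and the threshold of 0.1 leave each difference they hold as it is. They bear only on calls, and none changed a call among the chains. Of the 29 chains 16 kept their sign under every other alternative run, and 13 turned under at least 1. Among the 16 were Il10ra, Il5ra, Il13ra1, Il2rb, Il4ra, Il12rb2 and Il1r2. Their groups do not overlap, so leaving out 1 array could not turn their sign. Averaging probe sets could not change Il10ra, Il5ra, Il4ra, Il12rb2 or Il1r2, which have 1 probe set each. For those, only quantile normalization and median centring could turn the sign. As the mean of their probe sets, however, Il2rb fell to 0.079 and Il13ra1 to 0.20. The other probe sets of Il2rb had the opposite sign, so its direction is not settled. Over all probe sets limma called 21 as deposited, 870 after quantile normalization, 614 after median centring, 51 with dim probe sets left out, 139 at an adjusted p of 0.1 and 0 to 19110 with single arrays left out. The mouse number as a replicate block gave 15 calls over all probe sets and 0 among the chains; the labels do not pair the mice, and deviations of mice with a shared number were nearly uncorrelated (0.01). After quantile normalization 2 chains, 3 interleukins and 1 JAK, STAT or SOCS gene passed, and after median centring 3 interleukins. With dim probe sets left out, and also at an adjusted p of 0.1, 1 interleukin passed. Leaving out single arrays gave 0 to 11 chains, 0 to 2 partner chains, 0 to 10 interleukins, 0 to 8 JAK, STAT and SOCS genes and 0 to 6 adaptors past the threshold. Such a fit has 1 array in a group, which is taken to vary like the other group.

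The median difference of the chains was 0.157 after quantile normalization, where the median of all probe sets was 0.0066, and -0.0365 to 0.159 with single arrays left out. For partner chains it was 0.145 after quantile normalization, 0.141 after median centring, 0.0413 without dim probe sets, 0.150 as the mean of all probe sets of a gene and 0.0471 to 0.137 with single arrays left out. For interleukins these were 0.0404, 0.0672, -0.0456, 0.0327 and -0.0172 to 0.0172. For JAK, STAT and SOCS genes the median was 0.125 after quantile normalization and -0.0739 to 0.0661 with single arrays left out, and for adaptors -0.159 and -0.447 to -0.273.

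Signs turned after quantile normalization for Il13ra2 (0.012), Il21r (0.0128), Il10rb (0.162), Il6ra (0.0044), Il18r1 (0.142) and Il18rap (0.0962), and after median centring for Il13ra2 (0.0141), Il10rb (0.0429) and Il18r1 (0.0186). As the mean of its probe sets Il6ra turned to 0.131. With single arrays left out the range crossed 0 for Il15ra (-0.205 to 0.494), Il9r (-0.204 to 0.0208), Il21r (-0.609 to 0.196), Il3ra (-0.0745 to 0.253), Il10rb (-0.0284 to 0.0069), Il22ra2 (-0.126 to 0.160), Il6ra (-0.335 to 0.0536), Il1r1 (-0.00076 to 0.331), Il1rap (-0.099 to 0.265), Il18r1 (-0.406 to 0.336) and Il17rb (-0.277 to 0.0092). The cause of these changes was not tested, and the number of arrays limits the precision.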

Other observations

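Other IL-17 receptor chains fall outside the symbol pattern used for the 29 and were looked at after the values of Il17ra were known. Il17re, the receptor chain for IL-17C, read 5.87 and 5.84 in wild type and 6.03 and 6.06 in transgenic mice, and its other probe set 5.79 and 5.79 against 5.91 and 6.16. Both probe sets lay higher without overlap, by 0.19 and 0.25 (limma adjusted p = 0.452 and 0.464). Il17rc, the partner of Il17ra, read 5.54 and 5.50 against 5.49 and 5.52 and overlapped. Il17rd, an orphan relative, differed by -0.14 and 0.18 on its 2 probe sets.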
